A study of Mus musculus with 4 samples.

Results

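The transcripts of 9 mouse gasdermin genes were followed in intestinal crypts with and without CREPT: Gsdmc, Gsdmc2, Gsdmc3, Gsdmc4, Gsdmcl1 and Gsdmcl2, which form the Gsdmc cluster on chromosome 15, and Gsdmd, Gsdme and Gsdma. They are 9 of the 53845 genes in the count table, and all 9 were found there by gene identifier. The genes were put together because they belong to 1 family and were chosen by their CPM in the comparison made here, WT against knockout, which was already known. Their differences between the groups are therefore given as a description, with no p-value; counts of calls among them stand beside the share over all tested genes and are no evidence.

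Gasdermins are pore-forming proteins. In their resting state the C-terminal domain holds the N-terminal domain in check; when a protease such as an inflammasome-activated caspase or a granzyme cuts the linker, the free N-terminal part inserts into the plasma membrane, which lets cytokines out and can kill the cell by pyroptosis. Gsdmd is the gasdermin cut downstream of the inflammasomes, Gsdme can be cut during apoptosis, Gsdma is best known from skin and upper gut epithelium, and the mouse Gsdmc copies are epithelial genes of the intestine that respond to the type 2 cytokines IL-4 and IL-13 through STAT6.

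RNA-seq was performed on crypts freed from the intestine of untreated C57BL/6 mice, with 2 libraries for wild-type mice (WT) and 2 for Vil-CREPTKO mice (the knockout), described by the study as biological replicates. In Vil-CREPTKO mice a Cre recombinase driven by the villin promoter, which is active in the intestinal epithelium from fetal life on, removes a floxed part of Rprd1b, the gene for the RNA polymerase II-binding protein CREPT, so that deletion starts long before adult crypts are taken. Cells other than epithelium keep the gene. The labels name the tissue as intestine, and the crypt protocol of the study starts from small intestine. Mice of both sexes aged 6 to 8 weeks were used in the work as a whole. WT mice of the line came from matings of villin-cre; CREPT fl/fl with CREPT fl/fl parents, so that they would carry the floxed alleles without Cre. The sources used here do not give the age or the mating of the animals behind each library, or whether animals were pooled, and no other agent was labelled for either group.

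Total counts were 47241049 to 49369315 per library. Rprd1b was at 60.5 and 61.6 CPM (counts scaled to the library total, with TMM, over the tested genes) in WT and at 26.3 and 29.0 CPM in the knockout, a log2 fold change of -1.14 (SE 0.12) and an adjusted p of 0.0041 in edgeR (quasi-likelihood test). Counts cover the whole gene, and its exons overlap those of Tgm2 on the opposite strand over 370 bp. The WT libraries differed in sex: Xist was at 863 CPM in WT replicate 2, with no count of the Y-linked genes, and at 0.299 to 0.529 CPM in the other 3 libraries. Mitochondrial genes took 6.75% to 7.62% of the counts in 3 libraries and 10.2% in Vil-CREPTKO replicate 1. Of the markers that define the tissue, 7 epithelial genes summed to 8248 to 9216 CPM in the 4 libraries, Krt5 of squamous epithelium had no count, and Car1 of the colon had no count. Krt5 and Car1 are single members of their lists. The squamous list summed to 3.16 to 5.09 CPM and the colon list to 272 to 379 CPM in the 4 libraries.

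The copies of the Gsdmc cluster are close enough in sequence that reads can be hard to assign, which bears on every level below. Their first 120 coding bases on the transcript strand (GENCODE M21, GRCm38) are shown to let the copies be compared; capitals in the last 3 lines mark the bases that differ from Gsdmc4.
Gsdmc4: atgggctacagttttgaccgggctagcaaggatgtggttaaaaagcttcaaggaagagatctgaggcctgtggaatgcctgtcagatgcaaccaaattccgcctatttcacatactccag
Gsdmc2: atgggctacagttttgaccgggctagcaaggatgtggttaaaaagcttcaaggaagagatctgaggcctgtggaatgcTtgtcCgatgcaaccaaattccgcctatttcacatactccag
Gsdmc3: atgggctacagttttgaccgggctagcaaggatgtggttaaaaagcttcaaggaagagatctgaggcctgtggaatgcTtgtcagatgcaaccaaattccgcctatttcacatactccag
Gsdmc: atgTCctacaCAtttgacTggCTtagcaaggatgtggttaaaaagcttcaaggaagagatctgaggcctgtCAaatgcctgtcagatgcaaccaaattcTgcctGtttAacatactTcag
In this stretch Gsdmc3 differed from Gsdmc4 at 1 base, Gsdmc2 at 2 bases and Gsdmc at 13 bases. Over the whole coding sequence Gsdmc2 and Gsdmc3 were 97.1% identical, with 42 differences in 1440 bases. Gsdmc4 was 93.7% identical to Gsdmc2 and 93.8% identical to Gsdmc3, and Gsdmc was 86.7% to 87.5% identical to these 3 copies. The coding sequences of Gsdmd, Gsdme and Gsdma shared only 52.8% to 55.5% of aligned bases with the 4 coding copies of the cluster. Of all 100-base words in its annotated transcripts, Gsdmc2 shared 28.6% with another gasdermin transcript, Gsdmc3 28.4%, Gsdmc4 20.2%, Gsdmcl2 11.0% and Gsdmc 7.0%, while Gsdmd and Gsdme shared none. With 50-base words the shares were higher, at 51.3%, 46.0%, 39.0%, 22.5% and 16.1% in the same order, and again none for Gsdmd and Gsdme. RSEM, the quantifier named for these data, divides reads that match several transcripts among them by a statistical model, but the deposited counts are whole numbers and the step that made them is not described. How reads that match several copies entered the counts is thus not known, so the level of a single copy is less certain than the sum over the cluster, and the levels of Gsdmd and Gsdme carry no such uncertainty from shared 100-base words.

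Gsdmc4 was the copy with the most reads. It had 14147 and 27651 counts in WT against 2638 and 5942 in the knockout, which corresponds to 277 and 562 CPM in WT and 60.7 and 121 CPM in the knockout. Both Vil-CREPTKO libraries were lower than both WT libraries. The mean was 419 ± 201 CPM in WT and 90.9 ± 42.6 CPM in the knockout (SD, n = 2 for each), 4.62-fold lower, with a log2 fold change of -2.21 (SE 0.38). Gsdmc2 had 7814 and 16166 counts in WT against 1603 and 2835 in the knockout. In CPM it stood at 153 and 328 in WT against 36.9 and 57.7 in the knockout. Again the groups did not overlap, and in both groups replicate 2 was the higher library. The Gsdmc2 mean was 241 ± 124 CPM in WT and 47.3 ± 14.7 CPM in the knockout (SD, n = 2 for each), 5.09-fold lower, with a log2 fold change of -2.35 (SE 0.35). Gsdmc3 had the fewest reads of these 3 copies, at 44.8 and 81.9 CPM in WT and 10.5 and 17.8 CPM in the knockout. Its libraries had the same order as those of Gsdmc2 and Gsdmc4, without overlap between the groups. The Gsdmc3 mean was 63.3 ± 26.2 CPM in WT and 14.1 ± 5.18 CPM in the knockout (SD, n = 2 for each), 4.48-fold lower (log2 fold change -2.16, SE 0.31). WT replicate 2 carried a good part of these sizes: without it the log2 fold changes were -1.61 for Gsdmc4, -1.69 for Gsdmc2 and -1.66 for Gsdmc3.

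**Figure D1:**
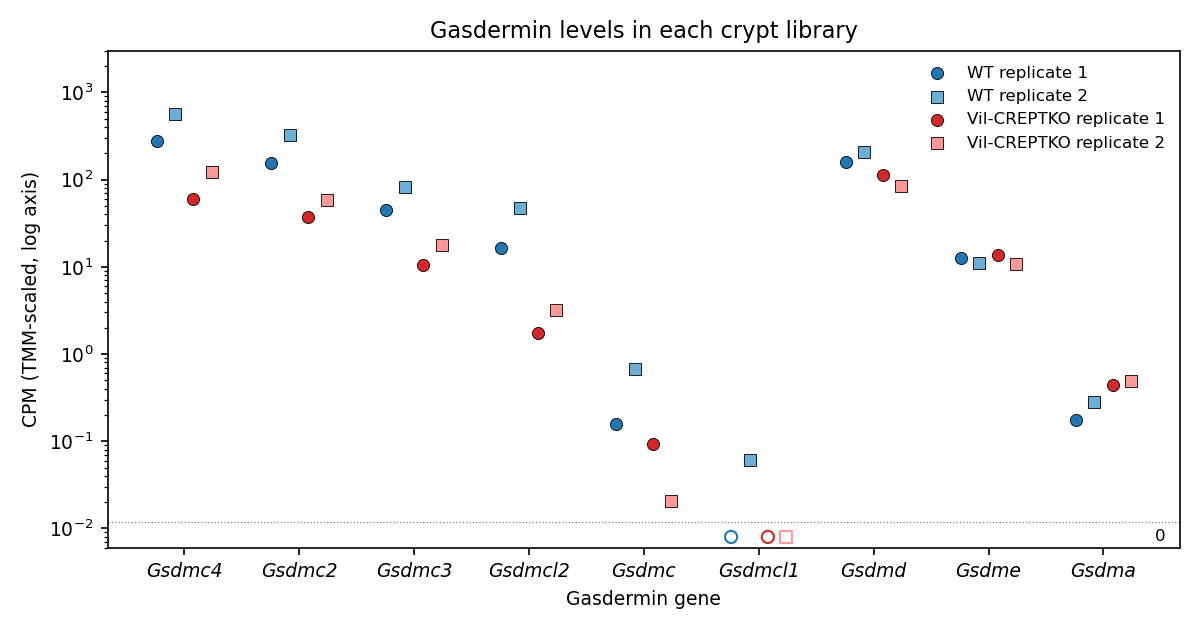
Level of each gasdermin gene (CPM, log axis) in the 2 WT and 2 Vil-CREPTKO libraries, 1 point per library, with open symbols under the dotted line for a count of 0. Both Vil-CREPTKO points lie below both WT points for Gsdmc4, Gsdmc2, Gsdmc3, Gsdmcl2 and Gsdmd, and for Gsdmc near the detection limit. Gsdme overlaps, and Gsdma has both Vil-CREPTKO points above.

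Gsdmcl2 showed the widest gap. It is annotated as a transcribed unprocessed pseudogene, that is, a gene copy that is transcribed but not thought to encode a full protein. It had 846 and 2333 counts in WT against 75 and 159 in the knockout, or 16.6 and 47.4 CPM against 1.73 and 3.24 CPM. The Vil-CREPTKO libraries lay far under both WT libraries, although the WT libraries themselves were far apart. The mean was 32.0 ± 21.8 CPM in WT and 2.48 ± 1.07 CPM in the knockout (SD, n = 2 for each), 12.9-fold lower, with a log2 fold change of -3.68 (SE 0.49), the 13th lowest of the 17504 genes tested. Without WT replicate 2 this value was -2.73. By the same order, Gsdmc2 ranked 82nd, Gsdmc4 98th and Gsdmc3 106th.

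The remaining 2 genes of the cluster were close to the detection limit and did not pass the filter on low counts. Gsdmc had 8 and 33 counts in WT against 4 and 1 in the knockout. Pooled over libraries and corrected for depth, its level in the knockout was 13.2% of WT, with an exact 95% interval of 4.07% to 33.4% that covers counting error only. Both Vil-CREPTKO libraries were again lower, by a margin of few reads between WT replicate 1 and Vil-CREPTKO replicate 1. Gsdmcl1 had 3 counts in WT replicate 2 and none elsewhere. A count of 0 allows up to 3 counts, or 0.0588 to 0.069 CPM in these libraries, so no difference in Gsdmcl1 was detectable at this depth.

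Summed over its 6 genes, the Gsdmc cluster had 25101 and 50216 counts in WT against 4775 and 9811 in the knockout. This was 0.0526% and 0.102% of all counts in WT and 0.0101% and 0.0203% in the knockout. In CPM the sum was 492 and 1020 in WT and 110 and 200 in the knockout. The 2 groups did not overlap, and the lowest WT library was 2.46 times the highest Vil-CREPTKO library. The mean was 756 ± 374 CPM in WT and 155 ± 63.6 CPM in the knockout (SD, n = 2 for each), which left 20.5% of the WT level (4.88-fold lower, log2 fold change -2.29, SE 0.38). Taking 1 WT library with 1 Vil-CREPTKO library at a time, the level was 10.8% to 40.6% of WT over the 4 pairs. In bulk RNA of this kind, fewer cells that express a gene and less RNA per cell cannot be told apart.

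The cluster sum varied within groups as well as between them. WT replicate 2 was 2.08 times WT replicate 1, and Vil-CREPTKO replicate 2 was 1.82 times Vil-CREPTKO replicate 1. Over all tested genes the median of this ratio was 0.999 in WT and 1 in the knockout. That median shows that the libraries were scaled alike, not how far a typical gene differed. Ratios above that of the cluster were found in 2.54% of tested genes between the WT libraries and in 4.94% between the Vil-CREPTKO libraries. WT replicate 2, the library with Xist, was also the highest in the cluster; in the 3 libraries with Y-linked counts the cluster was at 492 CPM in WT replicate 1 and at 110 and 200 CPM in the knockout. Without WT replicate 2 the Vil-CREPTKO level was 31.5% of WT and the log2 fold change -1.67. Without WT replicate 1 the level was 15.2%.

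Of the 9 genes, 7 passed the filter on low counts. Gsdmc2, Gsdmc3, Gsdmc4 and Gsdmcl2 were called lower in the knockout (edgeR adjusted p under 0.05 and a log2 fold change under -1), where 1.34% of all tested genes were called lower. With Gsdmd, 5 of the 7 had an adjusted p under 0.05 with a lower level in the knockout, against 2.29% of all tested genes, and none had one with a higher level, against 0.423%. Both Vil-CREPTKO libraries were below both WT libraries in the same 5 genes, as they were in 24.2% of tested genes. These shares are given as the background only, since the genes were chosen with this comparison known.

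The shares of the copies within the cluster were also compared. Gsdmc4 held 56.4% and 55.1% of the cluster reads in WT and 55.2% and 60.6% in the knockout. Gsdmc2 held 31.1% and 32.2% in WT and 33.6% and 28.9% in the knockout, and Gsdmc3 held 9.11%, 8.03%, 9.53% and 8.91% in the same order of libraries. For these 3 coding copies the shares of the groups overlapped. Gsdmcl2 was the exception, with 3.37% and 4.65% of the cluster reads in WT and 1.57% and 1.62% in the knockout. Its share in each Vil-CREPTKO library was thus lower than in either WT library.

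Levels of different genes were compared per length, as CPM per kb of annotated exon. The order was the same in each WT library for the cluster: Gsdmc4 at 133 and 269 CPM per kb, Gsdmc2 at 66.1 and 142, Gsdmc3 at 19.2 and 35.2, and Gsdmcl2 at 5.22 and 14.9. Gsdmc4 was above Gsdmc2 within each of the 4 libraries, although their ranges over the WT libraries overlapped, while Gsdmc3 lay below both and Gsdmcl2 below Gsdmc3. Gsdmd, at 67.8 and 87.9 CPM per kb, fell within the range of Gsdmc2. Gsdme, Gsdmc and Gsdma stood at 0.88 to 0.996, 0.0652 to 0.279 and 0.0647 to 0.104 CPM per kb, the last 2 not apart from each other, and Gsdmcl1 reached 0.0474 CPM per kb in 1 library. In the knockout Gsdmc4 was at 29.1 and 58.0 CPM per kb, Gsdmd at 48.1 and 35.9, and Gsdmc2 at 15.9 and 24.9, with Gsdmd above Gsdmc4 in replicate 1 and below it in replicate 2.

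**Figure D2:**
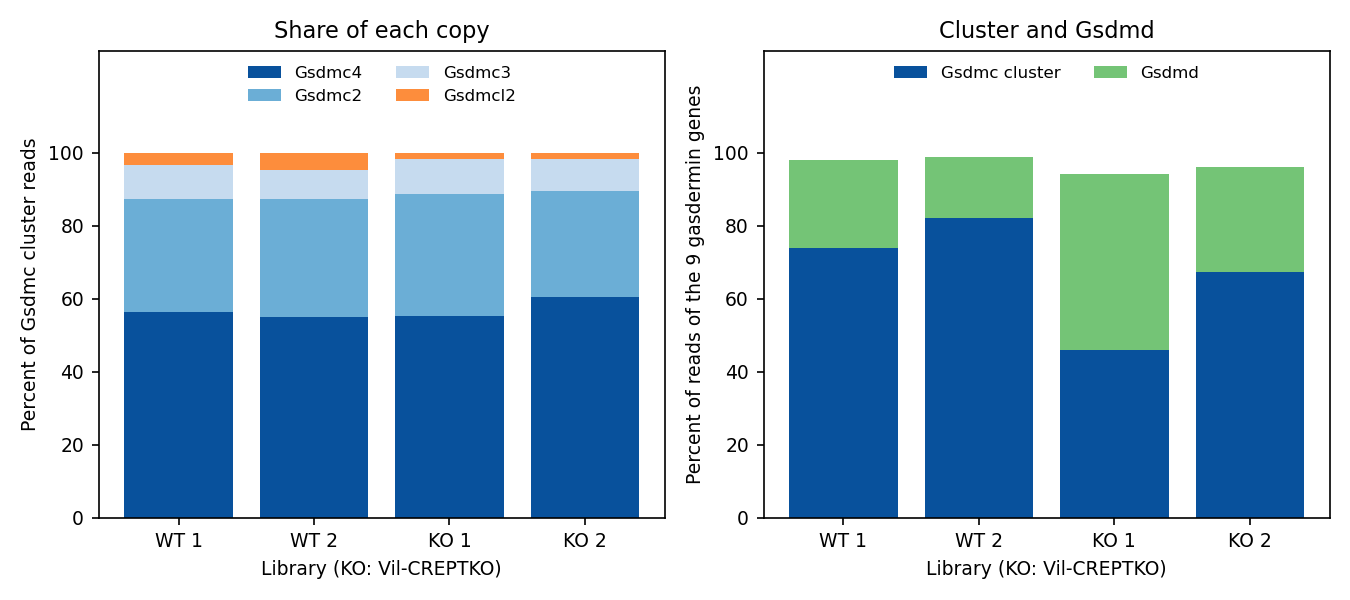
Left, percent of the Gsdmc cluster reads taken by each copy in each library; right, percent of the reads of all 9 gasdermin genes taken by the cluster and by Gsdmd, the rest being Gsdme and Gsdma. The Gsdmcl2 share is 3.37% and 4.65% in WT and 1.57% and 1.62% in the knockout, and the cluster share is 73.9% and 82.2% in WT and 46.1% and 67.4% in the knockout.

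Gsdmd, the inflammasome effector, lies on the same chromosome 12.0 Mb from the cluster. Its level was 161 and 209 CPM in WT and 114 and 85.2 CPM in the knockout. Both Vil-CREPTKO libraries were lower, with a smaller gap than in the cluster and with replicate 1, not replicate 2, as the higher of the pair. The mean was 185 ± 33.8 CPM in WT and 99.8 ± 20.6 CPM in the knockout (SD, n = 2 for each), 53.9% of WT, with a log2 fold change of -0.89 (SE 0.19). It did not reach the fold threshold of a call. As a share of all gasdermin reads, Gsdmd took 24.2% and 16.8% in WT and 48.0% and 28.8% in the knockout, while the total of the 9 genes was 666 and 1241 CPM in WT and 238 and 296 CPM in the knockout.

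Gsdme, the gasdermin linked to apoptosis, was at 12.7 and 11.2 CPM in WT and 13.7 and 10.8 CPM in the knockout. The groups overlapped, and the log2 fold change of 0.04 (SE 0.18) was smaller than its error, with a sign that turned between -0.15 and 0.21 as single libraries were left out. Gsdma was rare, with 9 and 14 counts in WT against 19 and 24 in the knockout. This put it at 0.176 and 0.284 CPM in WT versus 0.437 and 0.489 CPM in the knockout, the only one of the 9 genes with both Vil-CREPTKO libraries above both WT libraries. Its log2 fold change of 1 (SE 0.63) rests on few reads. Among the 3 other members of the family, Gsdma2, a neighbour of Gsdma, was at 1.14 and 1.48 CPM in WT and 1.13 and 1.20 CPM in the knockout (log2 fold change -0.17, SE 0.39, adjusted p 0.903 in edgeR). Gsdma3 had no count in any library, and Pjvk, which encodes pejvakin of the inner ear, had 1 count in each Vil-CREPTKO library and none in WT.

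The cluster spans 136.3 kb on chromosome 15, from 63775968 to 63912297 (GRCm38). Its protein-coding genes lie on the minus strand: Gsdmc (ENSMUSG00000079025) from 63775968 to 63808759, Gsdmc2 (ENSMUSG00000056293) from 63824346 to 63845177, Gsdmc3 (ENSMUSG00000055827) from 63857724 to 63878558, and Gsdmc4 (ENSMUSG00000055748) from 63891264 to 63912297. Transcribed pseudogenes lie between them on the plus strand: Gsdmcl1 (ENSMUSG00000062543) from 63847309 to 63855155 and Gsdmcl2 (ENSMUSG00000093867) from 63880707 to 63890512. No exon of the 9 genes overlaps an exon of another annotated gene. Along the cluster a coding gene and a pseudogene start head to head. The annotated 5′ ends are 2132 bp apart for Gsdmc2 and Gsdmcl1, 2149 bp for Gsdmc3 and Gsdmcl2, and 2151 bp for Gsdmc4 and Gsdmcl-ps, a further pseudogene outside the cluster as defined here. The distance is wider, at 8429 bp, for Gsdmc and 1700065I16Rik, a pseudogene inside the cluster.

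The counts of the partners of a head-to-head pair were compared within each library. Gsdmcl2 had 37.0% and 57.9% as many counts as Gsdmc3 in WT and 16.5% and 18.2% as many in the knockout. Gsdmcl-ps had 0.254% and 0.333% as many as Gsdmc4 in WT and 0.114% and 0.0168% as many in the knockout. Relative to its coding partner, each of these pseudogenes was lower in both Vil-CREPTKO libraries than in either WT library. For Gsdmcl-ps the knockout values rest on 3 and 1 counts, and how reads shared by copies were assigned is not known. Gsdmcl1 reached no more than 0.0186% of the counts of Gsdmc2 in any library. Relative to their coding partners, the pseudogenes of these 3 pairs thus differed widely in counts.

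**Figure D3:**
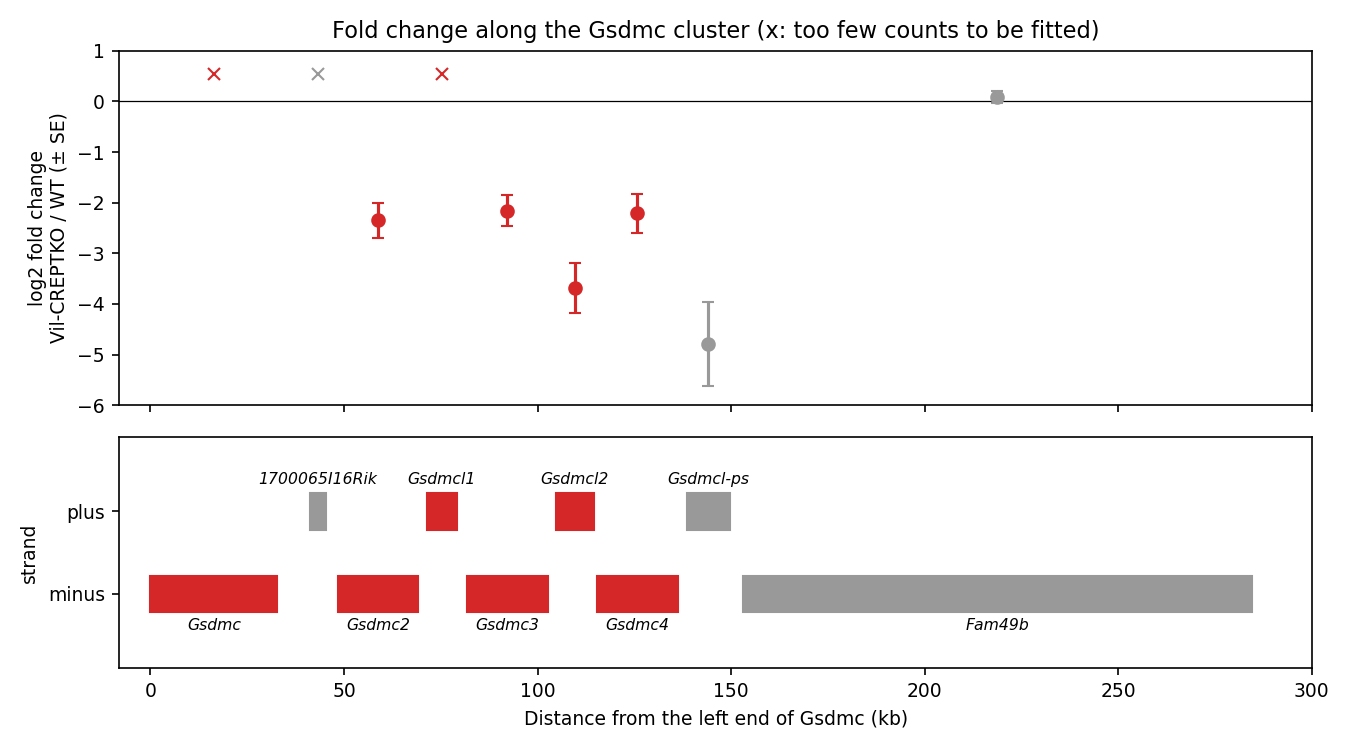
Upper panel, log2 fold change of Vil-CREPTKO over WT (± SE) of each fitted gene at its midpoint, with crosses for genes with too few counts; lower panel, the genes by strand, in kb from the left end of Gsdmc, gasdermin genes of the cluster in red and other genes in grey. The 4 fitted cluster genes lie between -3.68 and -2.16, Gsdmcl-ps lies at -4.80 and Fam49b next to it at 0.08.

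The neighbourhood was examined within 1 Mb of the cluster. Of the 25 other genes there that are in the count table, 15 had no count in any library and 5 were tested. Of these 1, Gsdmcl-ps, had an adjusted p under 0.05 with a lower level in the knockout, as 2.29% of all tested genes had. Gsdmcl-ps (chromosome 15, 63914448 to 63925666) had 36 and 92 counts in WT against 3 and 1 in the knockout. It was nearly silent in both Vil-CREPTKO libraries, at 3.39% of WT after pooling (exact 95% interval 0.909% to 8.88%). The log2 fold change of Gsdmcl-ps was -4.80 (SE 0.83), or -3.93 without WT replicate 2. This gene passed the filter on low counts only through the WT libraries, so its adjusted p is description and no evidence. Of its 100-base words, 12.9% are shared with Gsdmcl2. The pseudogene 1700065I16Rik had 1 count in WT replicate 2 and none elsewhere. Fam49b, a regulator of Rac signalling that starts beyond Gsdmcl-ps and is transcribed toward the cluster, was at 45.2 and 51.1 CPM in WT and 50.8 and 51.0 CPM in the knockout (log2 fold change 0.08, SE 0.12, adjusted p 0.838 in edgeR). The other tested neighbours were Asap1 (log2 fold change 0.48, adjusted p 0.228 in edgeR), which encodes an Arf GTPase-activating protein, Adcy8 (-0.42, adjusted p 0.755), which encodes an adenylyl cyclase, and Tsg101-ps (0.27, adjusted p 0.891). Their edgeR adjusted p-values did not pass the threshold.

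A promoter sequence was at hand for 2 of the 9 genes, Gsdmc3 and Gsdme, in the RefSeq table (GRCm38.p6). The 250 bases before the Gsdmc3 start, chr15:63878559-63878808 on the minus strand, are shown as the upstream region of a copy that was lower in the knockout; they carry no capitals because none of the motifs searched was found.
Gsdmc3 upstream: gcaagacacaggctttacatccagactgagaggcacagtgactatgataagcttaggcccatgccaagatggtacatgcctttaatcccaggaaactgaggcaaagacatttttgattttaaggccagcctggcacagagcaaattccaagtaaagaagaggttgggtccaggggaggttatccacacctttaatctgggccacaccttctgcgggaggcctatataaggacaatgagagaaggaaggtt
Both strands of the 300-base window around each start were searched. The STAT6-type motif TTCNNNNGAA was absent from the Gsdmc3 and Gsdme windows and present in 7.0% of 32851 promoters, the STAT-type motif TTCNNNGAA was absent from both and present in 8.3%, and TATAAA was absent from both and present in 13.6%. This says only that these letters are not in these windows. Variants of the motifs were not searched for, and the printed Gsdmc3 sequence holds the similar letters tatataag near its end.

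Genes that act around the gasdermins were described next, from lists of proteases, inflammasome sensors and their adaptor, and pyroptosis outputs and regulators. Of 31 such genes 23 were tested, of which 1 fell and none rose, where 2.29% of all tested genes fell and 0.423% rose. At an unadjusted edgeR p under 0.05, 4 were lower and 0 higher, and DESeq2 gave 2 lower and 0 higher. Shares of all genes at an unadjusted p and in DESeq2 are not given here, so such counts, here and below, are description only. The median log2 fold change was -0.07, against -0.006 over all genes tested. The gene that fell was Pycard, which encodes the adaptor ASC that links inflammasome sensors to caspase-1. Pycard was at 192 and 191 CPM in WT and 95.9 and 107 CPM in the knockout. The WT libraries were almost equal and both Vil-CREPTKO libraries lower, with a log2 fold change of -0.92 (SE 0.13, adjusted p 0.0105 in edgeR). Nlrp6, a sensor of the intestinal epithelium, was at 374 and 421 CPM in WT and 253 and 257 CPM in the knockout. The groups did not overlap, but the log2 fold change of -0.64 (SE 0.15) had an edgeR adjusted p of 0.0735, while DESeq2 gave an adjusted p of 0.00115 (0.00115 to 0.274 over the alternatives).

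None of the 8 tested proteases passed the test in edgeR or DESeq2, and 1 had an unadjusted p under 0.05. Gzma, a granzyme of cytotoxic lymphocytes, was at 442 and 355 CPM in WT and 317 and 277 CPM in the knockout (log2 fold change -0.42, adjusted p 0.311 in edgeR). Named for their role after their values had been seen, Casp1, which cuts gasdermin D, had a log2 fold change of -0.30 (adjusted p 0.423 in edgeR), Casp4, which encodes the sensor of cytosolic lipopolysaccharide caspase-11, one of -0.02 (adjusted p 0.973), and Casp8 one of 0.17 (adjusted p 0.642). The interferon regulatory factors Irf1 and Irf2 had log2 fold changes of 0.02 (adjusted p 0.972 in edgeR) and 0.16 (adjusted p 0.627).

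Because Gsdmc copies respond to type 2 cytokines, genes of that pathway were set beside them. Of 24 type 2 genes 18 were tested, with a median log2 fold change of -0.28. Of these 2 fell and 1 rose, where 2.29% of all tested genes fell and 0.423% rose. Among receptors and signalling genes none of the 7 tested passed in edgeR or DESeq2, and 1 had an unadjusted p under 0.05. Stat6, the transcription factor of the IL-4 and IL-13 receptors, was at 134 and 143 CPM in WT and 135 and 132 CPM in the knockout (log2 fold change -0.05, adjusted p 0.907 in edgeR), and Jak2, a receptor-associated kinase, had a log2 fold change of 0.11 (adjusted p 0.869). Of the upstream signals, Il17rb, the receptor of IL-25, was at 4.72 and 8.05 CPM in WT and 1.29 and 2.44 CPM in the knockout. It was lower in both Vil-CREPTKO libraries, and its log2 fold change of -1.77 (SE 0.38) had an edgeR adjusted p of 0.04998, at the edge of the threshold. The edgeR adjusted p was over the threshold with RLE scaling (0.0591) and upper-quartile scaling (0.0661). Under the other alternatives that kept all 4 libraries, in edgeR or DESeq2, it was 2.91e-06 to 0.043. Without WT replicate 2 the log2 fold change of Il17rb was -1.33, and without Vil-CREPTKO replicate 1 it was -1.39. Il25 itself, named after its values had been seen, had 18 and 32 counts in WT against 12 and 5 in the knockout. Its log2 fold change of -1.41 (SE 0.73) rests on few reads and had an adjusted p of 0.443 in edgeR. Il33, an alarmin, was at 24.6 and 47.6 CPM in WT and 34.3 and 18.5 CPM in the knockout (log2 fold change -0.45, adjusted p 0.621 in edgeR). Il4 and Il13 were too rare to be tested, at no more than 0.0815 and 0.137 CPM in any library.

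Of the 8 epithelial response genes of the type 2 list, 1 fell and 1 rose, where 2.29% of all tested genes fell and 0.423% rose. Sprr2a1, which encodes a small proline-rich protein, was at 29.4 and 67.9 CPM in WT and 8.28 and 12.9 CPM in the knockout. The order of its 4 libraries was that of the Gsdmc cluster, and it fell with a log2 fold change of -2.20 (SE 0.37, adjusted p 0.0198 in edgeR). Its near copies, named after their values had been seen, did not pass the test: Sprr2a3, at 36.6 and 75.9 CPM in WT and 30.8 and 60.3 CPM in the knockout, overlapped between the groups (log2 fold change -0.30, SE 0.36, adjusted p 0.778 in edgeR), and Sprr2a2, with 1.29 and 11.3 CPM in WT and 0.276 and 0.998 CPM in the knockout, had an adjusted p of 0.124 in edgeR. Reads shared by these copies may have been assigned to any of them. Retnlb, which encodes the goblet cell protein RELMβ, went the other way, at 31.3 and 29.3 CPM in WT and 295 and 418 CPM in the knockout. Both Vil-CREPTKO libraries were far above WT, and Retnlb rose with a log2 fold change of 3.56 (SE 0.20, adjusted p 0.000632 in edgeR). The abundant genes of the list did not pass the test: Fcgbp, a mucus protein gene, had a log2 fold change of -0.25 (adjusted p 0.715 in edgeR) and Itln1, an intelectin gene, one of 0.01 (adjusted p 0.996). Clca1 (goblet cell), at 1656 and 2145 CPM in WT and 1043 and 1356 CPM in the knockout, and Ang4 (Paneth cell), at 1286 and 2031 CPM in WT and 834 and 1325 CPM in the knockout, were named after their values had been seen, with edgeR adjusted p-values of 0.231 and 0.402.

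**Figure D4:**
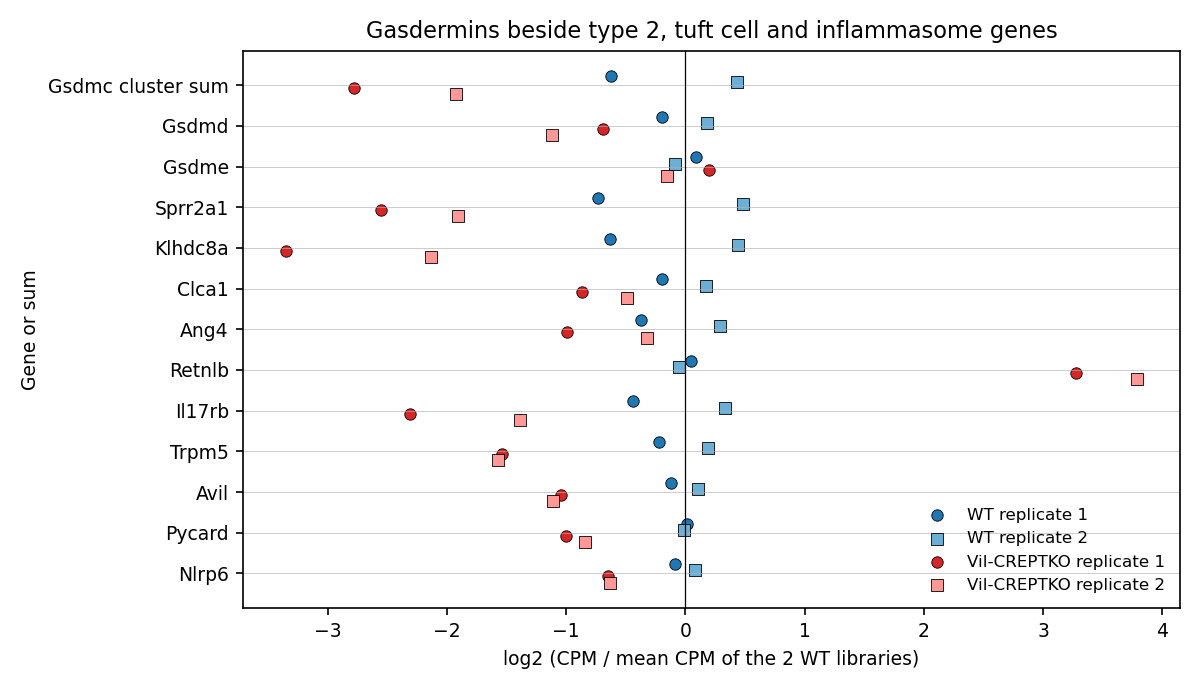
Level of each gene, and of the Gsdmc cluster sum, in each library as log2 of its CPM over the mean of the 2 WT libraries, 1 point per library. The cluster sum lies at -2.78 and -1.92 in the knockout, with Sprr2a1 at -2.55 and -1.91, Gsdmd at -0.69 and -1.12, and Retnlb at 3.28 and 3.79.

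Markers of the cells in the preparation are given beside these values. Tuft cells are the source of IL-25 in the intestine. Of 9 tested tuft cell genes 3 fell, where 2.29% of all tested genes fell. These were Trpm5, a cation channel of taste transduction (log2 fold change -1.56, SE 0.16, adjusted p 0.00352 in edgeR), Avil, an actin-binding protein (-1.07, adjusted p 0.0063), and Sh2d6, an adaptor (-0.87, adjusted p 0.0229). The 10 listed tuft genes summed to 211 and 254 CPM in WT and 132 and 125 CPM in the knockout, so that the sum was lower in both Vil-CREPTKO libraries. Villus enterocyte genes summed to 16320 and 21320 CPM in WT and 28926 and 17465 CPM in the knockout; of 12 tested, none passed in edgeR, while 3 were higher at an unadjusted p under 0.05 and 3 in DESeq2. Goblet cell genes, the cells that make Retnlb and Clca1, summed to 2170 and 2106 CPM in WT and 2402 and 1800 CPM in the knockout, and none of 5 passed in edgeR or DESeq2 or had an unadjusted p under 0.05. Immune cell genes summed to 216 and 149 CPM in WT and 158 and 124 CPM in the knockout, and none of 10 tested passed in edgeR or DESeq2, with 1 lower at an unadjusted p under 0.05. Genes of the proximal small intestine summed to 515 and 618 CPM in WT and 529 and 668 CPM in the knockout, those of the distal small intestine to 148 and 198 CPM against 202 and 176 CPM, and those of the colon to 272 and 340 CPM against 379 and 322 CPM, with overlap between the groups in all 3 lists. Like the cluster sum, the tuft sum was lower in both Vil-CREPTKO libraries and higher in WT replicate 2 than in WT replicate 1. Between the Vil-CREPTKO libraries the tuft sum differed little, unlike the cluster sum. The part of tuft cells, of villus cells and of the region sampled in the levels of the Gsdmc cluster was not tested.

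The genes whose profile over the 4 libraries lay closest to that of the cluster sum were found by the Euclidean distance between centred log2 CPM values, among 17497 genes. Klhdc8a, which encodes a protein with kelch repeats, was nearest, at a distance of 0.228, with 1.21 and 2.54 CPM in WT and 0.184 and 0.428 CPM in the knockout. Sprr2a1 followed at 0.245 and Gm8113 at 0.269, the latter with 7.89 and 18.3 CPM in WT and 2.23 and 3.36 CPM in the knockout. As in the cluster, replicate 2 was the higher library in both groups for each of these genes. BC018473 at 0.469 and AC117700.1 at 0.485 came next and were rare, at no more than 0.874 and 0.569 CPM in any library. With 4 libraries such a likeness is a description of these libraries.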

How the data were processed

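Per the labels, crypts were freed with EDTA, RNA was extracted with TriZol and libraries were sequenced, with the instrument given as Illumina XTEN in the record and as BGISEQ in the study's methods. The values are whole-number read counts per gene deposited by the authors, 1 column per library; reads were mapped to GRCm38.p6 with Bowtie2 and expression estimated with RSEM, after CASAVA 1.8. Other versions, the strand setting and the step from RSEM estimates to whole numbers are not given in the sources used here. Of 53845 rows, 53360 (99.1%) matched GENCODE M21, which gave symbols, positions and sequences.

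The model was fitted with edgeR 4.0.16 in R 4.3.3 (filterByExpr, 17504 genes; TMM; glmQLFit and glmQLFTest, two-sided; Benjamini-Hochberg adjustment over all tested genes). A call needed an adjusted p under 0.05 and an absolute log2 fold change over 1, the thresholds of the study. "Fell" and "rose" are used for an adjusted p under 0.05. SE is the log2 fold change over the square root of F. CPM are over tested genes after TMM scaling. The common biological coefficient of variation was 0.188, so for genes with many counts the spread between 2 libraries per group, more than depth, limits the precision. For genes with few counts, such as Gsdmc, Gsdmcl1, Gsdma and Gsdmcl-ps, counting error limits it as well. Exact intervals and the 3-count floor cover counting error only. The fit was tested on simulated data, but the outcome is not reported here and is no measure of error rates in these libraries.

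The members and gene lists were chosen with earlier results of these data known. Named besides the members were Rprd1b, related gasdermins with counts, list genes with an adjusted p under 0.05 or the 2 highest levels, tested neighbours, and the 5 nearest profiles. Of the marker lists only sums and genes that passed are reported, besides Krt5 and Car1, which had no count. Some genes were named after their values had been seen, as marked, and a few protease genes are left out of the text. Alternatives were scaling by RLE, upper quartile or library size, leaving out the filter, at least 10 counts in every library, DESeq2 1.42.0, a replicate term, and each library left out. Replicate numbers do not mark shared animals.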

Additional observations from a re-analysis of the deposited data

How the results depend on the processing

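The log2 fold change of the Gsdmc cluster sum kept its direction under all 13 alternatives, from -2.78 to -1.67, both ends from leaving out a library. After the data had been seen, 2 of these were added: a sum with Gsdmcl-ps and 1700065I16Rik, and Gsdmc4 alone. Gasdermin genes called lower numbered 4 to 5. Gsdmd kept its direction (-1.12 to -0.69), Gsdma ranged from 0.70 to 1.38, and the sign of Gsdme turned. In all tested genes, calls numbered 287, against 229 with upper-quartile, 253 with RLE and 447 with library-size scaling, 402 with DESeq2, 613 without a filter, and 312 to 429 with a library left out. Protease, inflammasome and pyroptosis genes with an adjusted p under 0.05 numbered 1, against 2 with library-size scaling, without a filter and with DESeq2 (1 with any library left out). Type 2 genes numbered 3, against 5 with library-size scaling or no filter, 4 with DESeq2, and 2 with RLE or upper-quartile scaling. For the neighbours the count of 1 became 0 with at least 10 counts in every library, which removed Gsdmcl-ps, and was 0 to 1 with a library left out; it was 0 without WT replicate 2. The causes were not tested.

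With a term for the replicate number (a replicate block) the cluster sum was at -2.26, 4 gasdermin genes were called lower, 336 genes were called in all, and type 2 genes numbered 4. Same-numbered libraries come from mice of different genotype and so share no animal. Their deviations had a correlation of 0.03 over genes. Whether they share a litter, day or preparation is not given in the sources used here. A correlation over all genes cannot decide it, since only some genes may be affected.

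Signs turned in genes with small differences. Irf1 was at -0.07, Itln1 at -0.07 and Fam49b at -0.01 with library-size scaling. With a library left out, Irf1 ranged from -0.16 to 0.23, Jak2 from -0.12 to 0.34, Il33 from -0.97 to 0.10, Itln1 from -0.30 to 0.39, Fam49b from -0.01 to 0.17, Adcy8 from -1.29 to 0.11 and Tsg101-ps from -0.15 to 0.86.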
